A study of Homo sapiens with 4 samples.

Results

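In SK-N-MC cells, 2663 promoter sites of the ETS factor FLI1 were also occupied by SSRP1 and marked by acetylation of lysine 27 on histone H3 (H3K27ac). SK-N-MC is an established Ewing sarcoma line carrying a fusion of EWSR1 to FLI1, and the antibody's FLI1 signal is read here as FLI1, without telling the fusion from other FLI1 protein. Members were chosen by the measured peak positions: the FLI1 peak had to overlap a peak of each other target by at least 20% of either peak and to reach within 2.5 kb of a protein-coding transcription start site (TSS), and it had to hold fewer than 4 tandem copies of GGAA or TTCC. The members were 7.34% (95% interval 7.07 to 7.61) of 36305 FLI1 peaks on chromosomes 1 to 22 and X, and 40.3% (39.1 to 41.4) of the 6616 FLI1 peaks at promoters. FLI1, SSRP1 and H3K27ac were each profiled by ChIP-seq in 1 library of cells for which the labels name no treatment, and 1 input library served as the control for peak calling. Chromatin was cut with micrococcal nuclease and then sonicated. There was no replicate check, so intervals are exact binomial (Clopper-Pearson) for shares and Newcombe for differences, both at 95% and for counting error alone, and no p-value was computed. The peak lists give no height, so nothing here speaks of how strongly a site was bound.

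ETS proteins recognise a GGAA core, and at the promoters of broadly expressed genes the usual site is CCGGAAG or a close relative. The EWS-FLI1 fusion keeps the DNA-binding domain of FLI1 and can also bind runs of GGAA repeats, which usually lie away from promoters. SSRP1 and SUPT16H make up FACT, a chaperone that takes histones off and puts them back as polymerases pass, and H3K27ac marks active promoters and enhancers. Inhibition of FACT in Ewing sarcoma is the subject of the series.

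The sequences below are chosen examples of ETS cores and of GGAA or TTCC runs. The first set takes 5 of the members with the most ETS cores, where a core is CCGGAAG or CCGGAAA on either strand. Then come 4 targets that EWS-FLI1 activates, chosen because their FLI1 peak held a core, and last the SSRP1 gene itself. Other targets with a member, such as CCND1 and SOX2, had no core in their FLI1 peaks. Some of the cores shown, including those of ZNF384, NR0B1, PRKCB and STEAP1, lie outside the 200 bp around the FLI1 midpoint that most core shares below use. All are from hg19, written 5′ to 3′ in the direction of the gene, with the cores in capitals. Because cores on the other strand appear as CTTCCGG or TTTCCGG, both forms are present.
ZNF384 (chr12:6798703-6798780, minus strand): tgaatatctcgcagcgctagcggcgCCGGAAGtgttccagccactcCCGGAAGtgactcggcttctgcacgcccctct
TRIP12 (chr2:230786132-230786259, minus strand): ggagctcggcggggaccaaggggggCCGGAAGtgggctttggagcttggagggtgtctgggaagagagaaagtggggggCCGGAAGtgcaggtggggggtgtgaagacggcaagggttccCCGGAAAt
EIF2S2 (chr20:32699604-32699695, minus strand): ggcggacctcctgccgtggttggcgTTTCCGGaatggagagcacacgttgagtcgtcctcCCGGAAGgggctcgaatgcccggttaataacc
IPPK (chr9:95432531-95432622, minus strand): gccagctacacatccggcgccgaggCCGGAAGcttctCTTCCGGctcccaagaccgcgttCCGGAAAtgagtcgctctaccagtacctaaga
TRMT112 (chr11:64085077-64085219, minus strand): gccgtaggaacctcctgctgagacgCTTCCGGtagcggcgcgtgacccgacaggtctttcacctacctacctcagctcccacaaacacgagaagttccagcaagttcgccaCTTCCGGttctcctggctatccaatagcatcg
NR0B1 (chrX:30327092-30327148, minus strand): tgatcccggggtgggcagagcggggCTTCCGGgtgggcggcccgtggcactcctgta
NKX2-2 (chr20:21495233-21495289, minus strand): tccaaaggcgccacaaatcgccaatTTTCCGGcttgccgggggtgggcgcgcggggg
PRKCB (chr16:23848023-23848116, plus strand): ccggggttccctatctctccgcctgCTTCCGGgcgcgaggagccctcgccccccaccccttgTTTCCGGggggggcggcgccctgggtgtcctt
STEAP1 (chr7:89783409-89783465, plus strand): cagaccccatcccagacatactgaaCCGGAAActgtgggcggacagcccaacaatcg
SSRP1 (chr11:57103327-57103356, minus strand): cctgtgtacggCTTCCGGtggcgggacgcg
ZNF384, which encodes a zinc finger factor, had 6 cores in its FLI1 peak of 784 bp, the highest number of any member, and 2 of them fell in the window shown. TRIP12, a ubiquitin ligase gene, had 5, and EIF2S2, which encodes a subunit of the initiation factor eIF2, had 4, as did IPPK, an inositol phosphate kinase gene, and TRMT112, which encodes a partner of several methyltransferases. In IPPK, 3 of the 4 cores lay between -181 and -146 bp from the TSS, on both strands. The SSRP1 promoter carried 1 core 24 bp downstream of its TSS, inside a FLI1 peak of 301 bp, so the gene for this FACT subunit was itself a member. At NR0B1 and STEAP1 the single core lay at -515 and -346 bp from the TSS.

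The second set shows the repeat threshold from both sides. Runs of GGAA or TTCC are in capitals.
SMARCC2 (chr12:56583692-56583753, minus strand): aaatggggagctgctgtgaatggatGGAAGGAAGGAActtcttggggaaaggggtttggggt
SMAD7 (chr18:46475482-46475543, minus strand): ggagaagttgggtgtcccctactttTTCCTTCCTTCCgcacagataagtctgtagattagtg
IGSF10 (chr3:151178832-151178861, minus strand): cgctccgccTTCCTTCCTTCCctcccagag
FUCA1 (chr1:24195695-24195783, minus strand): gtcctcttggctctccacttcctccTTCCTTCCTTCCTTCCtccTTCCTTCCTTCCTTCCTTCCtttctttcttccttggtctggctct
SMARCC2, a BAF complex subunit gene, SMAD7, an inhibitor of TGF-beta signalling, and IGSF10 each held a run of 3 copies and stayed in. At FUCA1, which encodes a lysosomal fucosidase, the longest run was 5 copies, with a second run of 4 beside it, and the peak was left out.

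Most members had no repeat to speak of. The longest run was 1 copy at 2423 members (90.99%), 2 copies at 161, 3 copies at 6, and 73 members held no GGAA or TTCC at all. Runs of 2 or 3 copies were found at 6.27% (5.38 to 7.26) of members and 9.26% (8.06 to 10.6) of distal FLI1 peaks with SSRP1 and H3K27ac. They were found at 4.18% (3.34 to 5.16) of acetylated promoter FLI1 peaks without SSRP1 at the 20% minimum. Over deciles of FLI1 peak width, the Mantel-Haenszel odds ratio of members to the promoter peaks without SSRP1 was 1.02 (0.759 to 1.36), whereas it was 1.76 (1.32 to 2.33) over strata of GC content and 1.72 (1.29 to 2.28) over strata of GC content and TSS distance. Runs of 4 or more had removed 20 promoter peaks with all 3 targets, 0.745% (0.456 to 1.15) of 2683, whereas the same condition removed 190 of 2284 such peaks away from promoters, 8.32% (7.22 to 9.53). The 20 ranged from 4 copies at LRRC4B and RBPMS to 20 copies at DPF3. CCK, a peptide hormone gene on the list of EWS-FLI1 targets, had one of these left-out peaks, with 13 copies, and also a member peak 0.697 kb from it. For the other limits, the SSRP1 overlap just inside the minimum was 20.0% at SYNRG and 20.3% at NADK, and just outside it 19.9% at NDUFB2. The FLI1 peak just inside the TSS window ended 2492 bp from the TSS of COMMD4, and those just outside lay 2512 bp from SH3BP4 and BGN.

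The FLI1 midpoint usually fell inside both partner peaks, whereas complete nesting of the 3 peaks was found at a minority of members. The rule required the overlap, so these values describe it. The midpoint of the FLI1 peak fell inside the SSRP1 peak at 2188 members (82.2%) and inside the H3K27ac peak at 2584 (97.03%). The whole FLI1 peak lay inside the SSRP1 peak at 989 members (37.1%). At 802 members (30.1%) the nesting was complete, with FLI1 wholly within SSRP1 and SSRP1 wholly within H3K27ac, and at 208 (7.81%) the SSRP1 peak lay inside the FLI1 peak. The distance between FLI1 and SSRP1 midpoints had a median of 165.5 bp, with quartiles of 72 and 284.5 bp. Several FLI1 peaks could share a partner: the 2663 members met 2516 distinct SSRP1 peaks and 2337 distinct H3K27ac peaks, and 140 SSRP1 peaks held 2 or more members.

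Width rose in the order FLI1, SSRP1, H3K27ac. FLI1 peaks of members ran from 227 to 1863 bp with a median of 407, SSRP1 peaks from 282 to 5426 bp with a median of 623, and H3K27ac peaks from 300 to 23657 bp with a median of 1897. Acetylated promoter FLI1 peaks that overlapped no SSRP1 peak by at least 20% of either peak, 1963 in number, are called SSRP1-free below. They had a median FLI1 width of 313 bp and a median H3K27ac width of 1463 bp. The name is a shorthand, since 121 of them (6.16%) touched an SSRP1 peak by less. At 250 bp downstream of their 1599 start sites with TSSs on 1 strand only, SSRP1 peaks covered 22.8%. SSRP1 peaks at acetylated promoters without FLI1 by the same minimum, 4782 in number and called FLI1-free below, had a median width of 434 bp. Width bears on whether peaks meet, so these values are a description. Several summits within a FLI1 peak were found at 12.9% of members (11.7 to 14.3), against 4.64% (3.75 to 5.66) of SSRP1-free peaks.

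**Figure D1:**
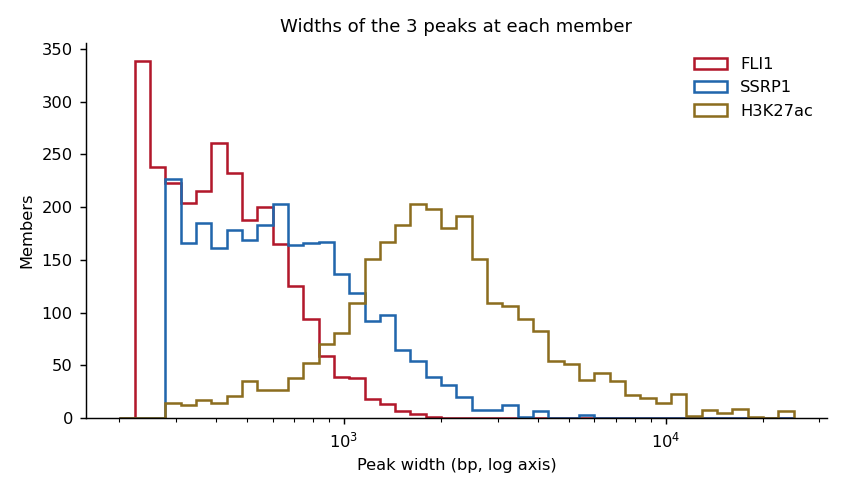
Number of members (y axis) by the width of their FLI1, SSRP1 and H3K27ac peaks (x axis, bp, log scale). The medians are 407, 623 and 1897 bp, and the distributions overlap widely.

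The widest FLI1 peaks were not those with the most ETS cores. CD248, which encodes a surface protein of stromal and tumour cells, had the widest at 1863 bp, followed by TSHZ3 at 1774 bp, TRIM36 at 1762 bp, TBL1XR1 at 1674 bp and PDE4A at 1626 bp, and none of these held a core. Of the 10 widest, 7 had no core, GRHL3 had 1, MSRA had 2 and SMAD7 had 3. That is near the share over all members, of which 1829 of 2663 (68.7%) had no core in the whole peak. By width, a core within 200 bp around the midpoint was present at 15.8% (13.2 to 18.7) of 728 members up to 300 bp, 20.9% (19.0 to 22.8) of 1798 members from 301 to 900 bp and 14.6% (9.15 to 21.6) of 137 wider ones. Single GGAA or TTCC units were about as dense in the 10 widest members, with a median of 10.8 per kb, as in all members, with 11.7 per kb.

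FLI1 coverage was highest at the start site, and SSRP1 coverage just inside the gene. The question addressed by this comparison is where each protein lay along the promoter, which the rule did not fix beyond the 2.5 kb window. The TSS used was the one nearest the FLI1 midpoint in members and SSRP1-free peaks, and nearest the SSRP1 midpoint in FLI1-free peaks. In members this choice favours FLI1 positions close to the TSS. At 48.5% of members (46.6 to 50.4) the FLI1 peak covered a TSS, and the midpoint lay within 100 bp of one at 30.6% (28.9 to 32.4) and within 500 bp at 71.9%. Over 2202 start sites of members with protein-coding TSSs on 1 strand only, FLI1 coverage was highest at the TSS, where 52.6% of sites were under a FLI1 peak. SSRP1 coverage was highest 150 bp downstream, at 72.6%, and H3K27ac coverage 200 bp downstream, at 94.7%. SSRP1 was also skewed: 500 bp downstream 42.7% of the sites were covered, and 500 bp upstream 32.7%.

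**Figure D2:**
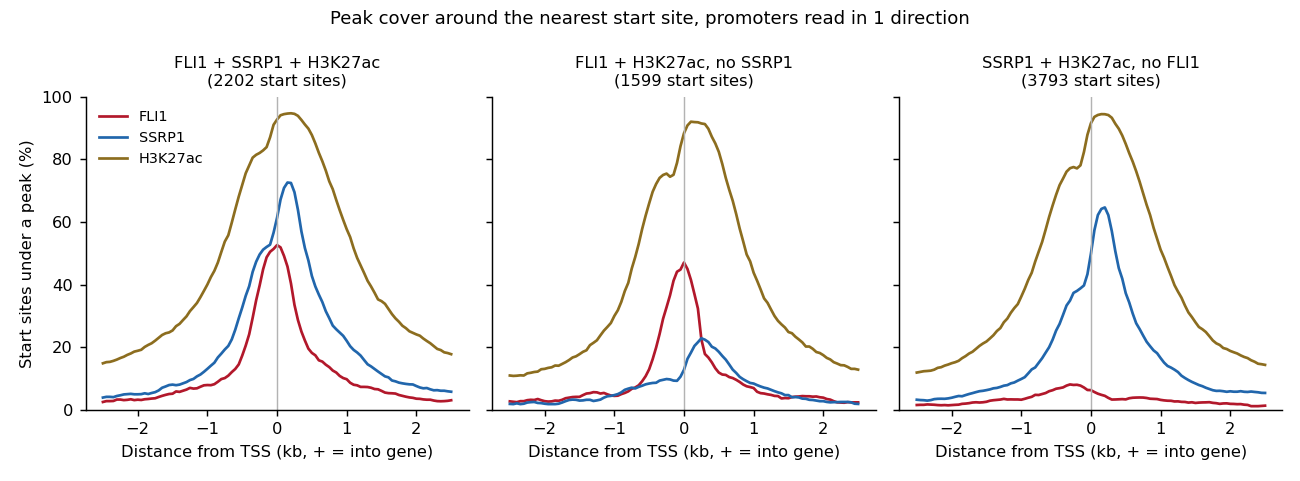
Percentage of start sites lying under a peak (y axis) by distance from the TSS (x axis, kb, positive into the gene), for members (left), SSRP1-free FLI1 peaks (centre) and FLI1-free SSRP1 peaks (right). In members FLI1 peaks at 52.6% on the TSS and SSRP1 at 72.6% 150 bp downstream.

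The comparison of FLI1 positions between members and SSRP1-free peaks depended on what was held equal. A FLI1 midpoint within 100 bp of a TSS was found at 30.6% of members and 30.6% of SSRP1-free peaks, a difference of 0.039 percentage points (-2.66 to 2.71). Over strata of GC content the Mantel-Haenszel odds ratio of members to SSRP1-free peaks was 0.752 (0.657 to 0.861), so at like GC content members had such a midpoint less often. A TSS was covered at 48.5% of members and 44.1% (41.9 to 46.3) of SSRP1-free peaks, 4.40 points more (1.49 to 7.29). That difference did not hold once width was taken into account: the odds ratio was 0.885 (0.780 to 1.00) over deciles of FLI1 peak width and 0.859 (0.757 to 0.976) over strata of GC content. In FLI1-free peaks only the SSRP1 midpoint can be placed, and it lay within 100 bp of a TSS at 17.8% (16.7 to 18.9). At single-strand promoters the median position of the SSRP1 midpoint was 113.5 bp downstream of the TSS in members and 153.5 bp in FLI1-free peaks. The shares lying downstream were 61.7% (59.7 to 63.7) and 66.1% (64.7 to 67.6). The TSS was chosen by FLI1 in members and by SSRP1 in FLI1-free peaks, so these values have different reference points.

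Measured against FLI1 itself, SSRP1 lay further into the gene at slightly more than every other member. Of 2391 members at promoters read in 1 direction, the SSRP1 midpoint was downstream of the FLI1 midpoint at 1299 (54.3%, 52.3 to 56.3), upstream at 1090 and level at 2, and the median offset was 22.5 bp. The shares by position of FLI1 are a description, since the offset contains the FLI1 position that forms the bins, and the peaks had to overlap near a TSS. With the FLI1 midpoint within 100 bp of the TSS, SSRP1 was downstream at 66.8% (63.1 to 70.4) of 672 members, by a median of 90.5 bp. With FLI1 100 to 500 bp upstream the share was 60.2% (55.8 to 64.5), and with FLI1 more than 500 bp upstream 58.2% (52.1 to 64.2). With FLI1 100 to 500 bp inside the gene it was 44.5% (40.0 to 49.0), and beyond 500 bp 37.5% (33.0 to 42.1). The share was 55.7% (50.8 to 60.5) with an ETS core (defined above) and 54.0% (51.8 to 56.3) without one.

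**Figure D3:**
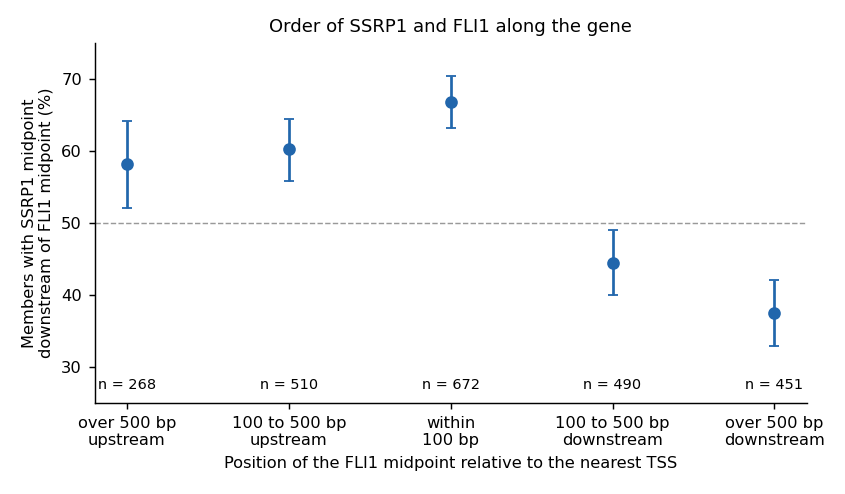
Share of members whose SSRP1 midpoint lies downstream of the FLI1 midpoint (y axis, percent, bars are 95% intervals) by the position of FLI1 relative to the TSS (x axis). The share is 66.8% with FLI1 within 100 bp of the TSS and 37.5% with FLI1 more than 500 bp downstream, and the dashed line marks 50%.

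Members lay less often than SSRP1-free peaks at promoters with protein-coding TSSs on both strands, called divergent here. The order of the TSSs was not checked, so overlapping or converging starts were counted too. Protein-coding TSSs on both strands within 1 kb of the nearest TSS were present at 8.52% of members (7.49 to 9.65) and 13.3% (11.8 to 14.9) of SSRP1-free peaks, a difference of -4.77 points (-6.64 to -2.95). FLI1-free SSRP1 peaks had 9.08% (8.28 to 9.93), so the difference from members was -0.55 points (-1.86 to 0.82). With strata of both GC content and TSS distance, the odds ratio of members to SSRP1-free peaks was 0.660 (0.540 to 0.807). Divergent promoters were more frequent among members with an ETS core in the central 200 bp, at 13.9% (11.0 to 17.2), than among members without one, at 7.25% (6.19 to 8.42). A long noncoding RNA starting on the opposite strand within 1 kb was found at 22.9% of members (21.4 to 24.6), 20.9% of SSRP1-free peaks and 19.8% of FLI1-free peaks.

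The ETS core was found at a minority of members, and most often close to the TSS. Within 100 bp on each side of the FLI1 midpoint, 510 members (19.2%, 17.7 to 20.7) had a core, and in the whole peak 834 (31.3%, 29.6 to 33.1) did. Of these, 632 had 1 core, 157 had 2, 29 had 3, 13 had 4, 2 had 5 and 1 had 6. Around all protein-coding TSSs, a window of the same length held a core at 13.7% of 56002, and around the midpoints of all FLI1 peaks at 5.60%. Cores gathered at the FLI1 midpoint, with 61.6 and 63.1 per 1000 members in the 50 bp on its sides. At 450 to 500 bp from the midpoint, on the same sides, there were 11.3 and 20.3 per 1000. The midpoint lay within 100 bp of a TSS at 50.2% (45.8 to 54.6) of members with a core and 26.0% (24.1 to 27.9) of members without, a difference of 24.2 points (19.5 to 28.9). Members with a core also had GGGCGG, described below, more often, at 61.2% (56.8 to 65.4) and 53.4% (51.3 to 55.5) without a core, and their SSRP1 peaks had a median width of 551 bp, against 637 bp. Of the 632 single cores, 454 (71.8%) lay inside the SSRP1 peak, as did the FLI1 midpoint at 504 (79.7%) of the same members. At promoters of 1 direction 48.2% (43.96 to 52.5) of the single cores read CCGGAA on the strand of the gene.

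Members had fewer ETS cores than SSRP1-free peaks and more than sites elsewhere. The core share was 19.2% in members and 23.3% (21.4 to 25.2) in SSRP1-free peaks, -4.13 points (-6.54 to -1.75), and the odds ratio was 0.719 (0.616 to 0.839) over strata of GC content and TSS distance. In the whole peak the shares were 31.3% in members and 32.5% (30.4 to 34.6) in the narrower SSRP1-free peaks, and that difference of -1.18 points had an interval of -3.91 to 1.53. The gap lay at the TSS. Within 100 bp of it, 31.5% (28.3 to 34.8) of members and 44.4% (40.4 to 48.5) of SSRP1-free peaks had a core. At 100 to 500 bp downstream the shares were 12.9% (10.2 to 15.9) in members and 12.2% (8.997 to 16.0) in SSRP1-free peaks, and the other distances also had overlapping intervals. The 2094 FLI1 peaks with SSRP1 and H3K27ac away from promoters, held to the same limit on repeats, had a core at 8.40% (7.25 to 9.68). That was 10.7 points fewer than members (8.82 to 12.6). FLI1-free SSRP1 peaks, which are at promoters, had a core at 5.77% (5.13 to 6.47). Their window was centred on the SSRP1 midpoint, so this share is not measured like that of members. Pooled over strata of GC content the odds ratio of members to the distal sites was 1.77 (1.45 to 2.15), but the strata differed. In each bin below 70% GC members had the higher share, as at 65 to 70% with 24.7% against 11.9%. At 70 to 75% GC the shares were 21.7% (18.5 to 25.2) in members and 20.0% (13.6 to 27.7) in distal sites. From 75% GC they were 18.1% (15.0 to 21.7) and 22.7% (14.8 to 32.3).

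**Figure D4:**
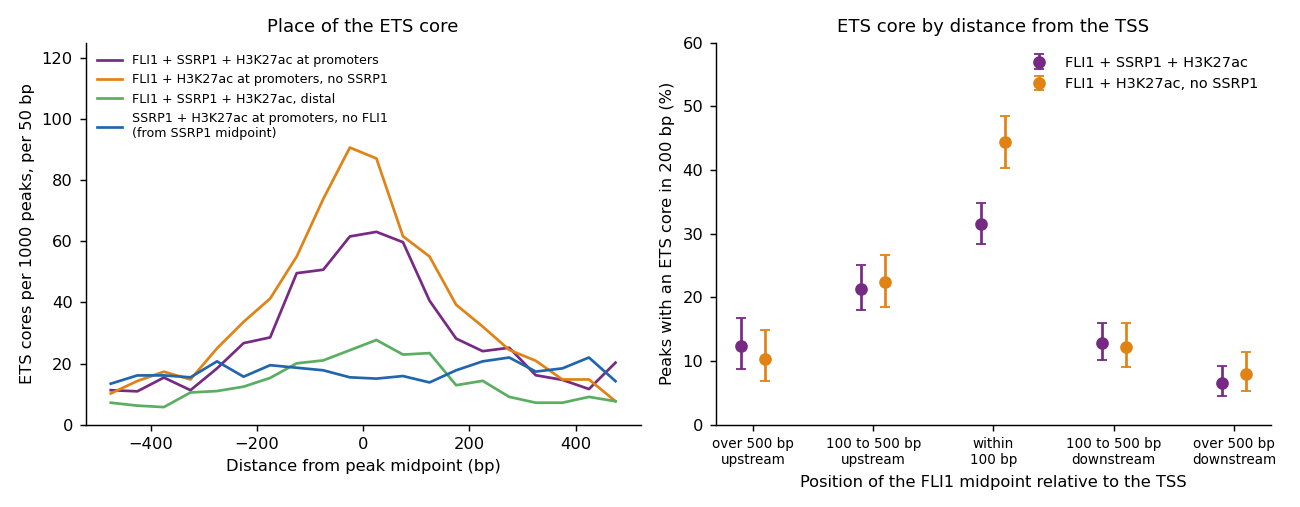
Left: ETS cores per 1000 peaks in steps of 50 bp (y axis) by distance from the peak midpoint (x axis, bp), with members at 63.1 next to the midpoint. Right: share of peaks with a core in 200 bp (y axis, percent, bars are 95% intervals) by position of FLI1 relative to the TSS, with members at 31.5% and SSRP1-free peaks at 44.4% within 100 bp.

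Cores also thinned out under the widest partner peaks. In 4 bins of SSRP1 width with about equal numbers, from narrow to wide, 21.3%, 22.3%, 19.5% and 13.6% (11.1 to 16.5) of members had a core. In 4 such bins of H3K27ac width the shares were 21.1%, 22.4%, 20.3% and 12.9% (10.5 to 15.7).

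Members lay in GC-rich sequence with many SP/KLF boxes, the sites of a large family of promoter-binding zinc finger factors. The median GC content of the central 200 bp was 68.5% in members, 63% in SSRP1-free peaks, 59.25% in distal sites with all 3 targets and 69% in FLI1-free SSRP1 peaks. The window was centred on the SSRP1 midpoint in FLI1-free peaks and on the FLI1 midpoint in the others. Sequence rich in CpG, with at least 50% GC and an observed to expected CpG ratio of at least 0.6, was found at 76.6% (74.9 to 78.2) of members, 65.5% of SSRP1-free peaks, 20.0% of distal sites and 73.1% of FLI1-free SSRP1 peaks. GGGCGG on either strand was present at 54.9% (52.99 to 56.8) of members, 40.9% (38.7 to 43.1) of SSRP1-free peaks, 21.9% of distal sites and 52.2% (50.8 to 53.6) of FLI1-free SSRP1 peaks. In windows centred on all TSSs the share was 48.2%. Within strata of GC content the odds ratio of members to SSRP1-free peaks was 0.903 (0.774 to 1.05) for CpG-rich sequence and 1.07 (0.939 to 1.23) for GGGCGG.

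Most other promoter motifs were less frequent around the FLI1 midpoints of members than in windows centred on TSSs. These windows differ in place, since 30.6% of member midpoints lay within 100 bp of a TSS. SSRP1-free peaks were also lower, with the NRF1 motif at 2.80% of them and 5.48% of all TSSs. Whether window placement accounts for this was not tested. CCAAT, the site of NF-Y, was found on either strand at 11.7% (10.5 to 13.0) of members, 16.7% (15.0 to 18.4) of SSRP1-free peaks and 23.4% of all TSSs, and the odds ratio to SSRP1-free peaks was 0.764 (0.641 to 0.910) over strata of GC content and TSS distance. The YY1 motif ATGGCGG was at 4.32% of members, 4.48% of SSRP1-free peaks, 1.77% of distal sites and 7.103% of all TSSs. The AP-1 motif TGANTCA was at 2.48% (1.92 to 3.14) of members and 5.11% (4.21 to 6.14) of distal sites. The NRF1 motif and the boxes CACGTG of the MYC family, TGACGTCA of CREB and TTTCCCGC of E2F were at 2.33%, 4.39%, 1.20% and 1.39% of members, with intervals of the difference from SSRP1-free peaks that all included 0. The E2F motif, at 1.28% of all TSSs, was the only one of those named in this paragraph that was not rarer at members than at all TSSs. A match says only that the letters are there.

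A FLI1 repeat peak, with 4 or more GGAA or TTCC copies, lay within 100 kb of 12.9% (11.7 to 14.3) of members, 10.6% (9.32 to 12.1) of SSRP1-free peaks, 24.9% (23.04 to 26.8) of distal sites and 10.8% of FLI1-free SSRP1 peaks. NKX2-2 had such a peak 41.2 kb from its upstream member and AFF1 45.9 kb away. The nearest called one to the NR0B1 member lay 5242 kb away, on chromosome X, which had 174 FLI1 peaks. Repeats without a called FLI1 peak were not counted, so these distances do not show whether a gene has a repeat nearby.

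The members met the TSS windows of 2586 protein-coding genes, 12.9% of all 20098 and, for 2584 of them, 22.2% of the 11628 genes with H3K27ac in the window. A single member was found at 2206 genes, 2 at 312 and 3 or more at 68. Genes with a member had more annotated TSSs, 3.44 on average, than acetylated genes without one, with 3.12. RARA, the retinoic acid receptor alpha gene, had 8 members around its 5 TSSs, and PLEC, a cytoskeletal linker gene, had 7 around 13. HOXD11, a homeobox gene with 1 TSS, had 5 between 264 and 649 bp wide, all under 1 H3K27ac peak and 4 SSRP1 peaks. The transcription factor genes MEIS1, MYC and POU3F2 had 4 each. PLEC and MYC lie on chromosome 8, which had 32.7 members per 100 genes, against a median of 13.6 over chromosomes. These genes were picked after their counts were seen.

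Members lay at many of the targets that EWS-FLI1 activates in Ewing sarcoma. The list used for them held 40 genes, whose response to EWS-FLI1 was not measured here. Of these 38 were acetylated and 17 had a member, 44.7% of the acetylated ones, beside 22.2% of all acetylated genes. Requiring 20% of both peaks to overlap gave a count of 8 such genes, with 1485 genes carrying a member in all, against 2586 as reported. NR0B1, a nuclear receptor needed for growth of these tumours, had a FLI1 peak of 699 bp over its TSS (chrX:30326454-30327152) inside an SSRP1 peak of 1057 bp. NKX2-2, a homeobox factor used as a marker of Ewing sarcoma, had 2 members, with midpoints at -623 and 1330 bp from its TSS, each in an SSRP1 peak of its own and both under 1 H3K27ac peak of 8390 bp. STEAP1, a surface metalloreductase, had the widest of the first 6 on the list, with a FLI1 peak of 998 bp whose midpoint lay 11.5 bp from that of SSRP1. SOX2, a stem cell factor, had members of 245 and 849 bp. CCND1, which encodes cyclin D1, had a FLI1 peak of 386 bp within an SSRP1 peak of 1944 bp and an H3K27ac peak of 12977 bp. PRKCB, a protein kinase C gene, had a FLI1 peak with its midpoint 1022.5 bp inside the gene and 2 cores nearer the TSS, at 747 and 784 bp.

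Members also lay at transcription factor genes of Ewing sarcoma and of the ETS family. Of 13 core Ewing transcription factors, a list that shares NKX2-2, BCL11B, SOX2 and MYBL2 with the list above, 12 were acetylated and 8 had a member (66.7% of the acetylated, 61.5% of the list). With 20% of both peaks this count was 2, when 1485 genes in all had a member, against 2586 as reported. MEIS1, a homeobox partner of HOX proteins, had 4 members from 233 to 397 bp wide, all under 1 H3K27ac peak of 16432 bp. BCL11B, a zinc finger factor, had 2, and TCF4, a helix-loop-helix factor, had 1. Of 27 ETS genes only 13 were acetylated, and 8 of these had a member (61.5% of the acetylated, 29.6% of the list). With only peaks at or above the median width of their list, 4 ETS genes had one, when 1519 genes in all had a member. Among the 8 were GABPA, whose product binds ETS cores at many housekeeping promoters, ELF2 with 2 members, ELF4, ELK3, ELK4 with a core, and ETV2. The GABPA member covered a promoter shared with ATP5PF. EWSR1, the gene fused to FLI1 in this tumour, had a member with its midpoint at -16 bp from its TSS. This peak shared 20.6% of its length with the SSRP1 peak, just above the 20% minimum. A second member in the EWSR1 window, nearest the TSS of another gene, lay wholly inside its SSRP1 peak. FLI1 had neither H3K27ac nor a member in its window.

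Lists of the chromatin and transcription machinery had members at 21.1% to 28.0% of their acetylated genes, beside 22.2% of all acetylated genes. The counts depended on the overlap and width required. Of 19 genes for FACT and other histone chaperones 4 had a member (21.1%): SSRP1, ASF1A, NASP and CABIN1. The CABIN1 peak was among the widest, at 1518 bp, and SUPT16H, the partner of SSRP1 in FACT, had no member. Of 25 acetylated elongation genes 7 had one (28.0%), among them CDK9, the kinase of P-TEFb, SUPT4H1, a subunit of DSIF, with 2 cores, AFF1, LEO1, TCEA1 and CDK13. Of 46 splicing genes 11 had one (23.9%), including SF3A3, SF3B2, SF3B4, SNRPA, SRSF4 and SRSF9. With 20% of both peaks the counts were 0 chaperone, 4 elongation and 5 splicing genes, when 1485 genes in all had a member, against 2586 as reported. With only peaks at or above the median width they were 1, 1 and 5, with 1519 genes in all.

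Housekeeping lists had shares between 8.82% and 16.7%, with 95% intervals that all included the 22.2% of all acetylated genes. A member was found at 3 of 34 translation initiation genes (8.82%, 1.86 to 23.7), which were EIF2S2, EIF2B5 and EIF4G1, at 3 of 31 proteasome genes (9.68%, 2.04 to 25.8), which were PSMD2, PSMD13 and PSMD14, at 11 of 77 cytoplasmic ribosomal protein genes (14.3%, 7.35 to 24.1), at 5 of 33 DNA replication genes (15.2%, 5.11 to 31.9) and at 13 of 78 mitochondrial ribosomal protein genes (16.7%, 9.18 to 26.8). For the cytoplasmic ribosomal proteins the count was 18 with a TSS window of 5 kb, 7 with 1 kb, 7 with 50% of either peak and 3 with 20% of both. Genes with a member in all numbered 2788, 2401, 2294 and 1485 in these settings, in that order, against 2586 as reported. With 20% of both peaks it was 0 for the proteasome, 2 for replication and 8 for mitochondrial ribosomal proteins. With only peaks at or above the median width it was 1 for translation initiation, 0 for the proteasome and 3 for replication. For cytoplasmic and mitochondrial ribosomal proteins it was then 7 and 4, and this setting left 1519 genes in all. Without chromosomes 3, 8, 10 and X it was 1 for translation initiation, with 2232 genes in all. Of the replication genes, MCM4, MCM6, MCM7, RRM2 and POLE had members, and those of RRM2 were 2 peaks in the same SSRP1 peak. In the list of p53 and NF-kB targets, 4 of 13 acetylated genes had one (30.8%): MDM2, RRM2B, NFKBIA and NFKB1. This count was 2 with 50% of either peak and with 20% of both, settings with 2294 and 1485 genes in all. Markers of other cell types had no member at any of 22 genes, which allows a share of up to 15.4%, and H3K27ac lay at 2 of them, KRT18 and MBP. The lists hold few genes each, and no test of them was made.

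**Figure D5:**
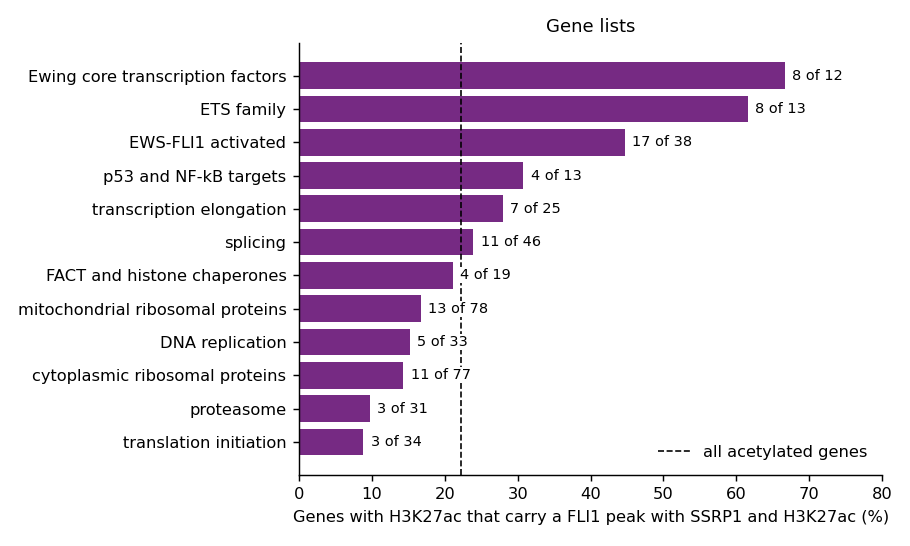
Share of acetylated genes on each list that carry a member (x axis, percent), with the counts beside the bars. The dashed line marks 22.2%, the share over all acetylated genes, with Ewing transcription factors highest (8 of 12) and translation initiation lowest (3 of 34).

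Members were spread unevenly over the chromosomes. The median chromosome had 13.6 members per 100 protein-coding genes, chromosome 8 had 32.7, chromosome 10 had 1.35 and chromosome X 0.921. All FLI1 peaks followed a similar pattern, at 4594 for chromosome 8, 242 for chromosome 10 and 174 for chromosome X. Among acetylated promoter FLI1 peaks, the share with SSRP1 was highest on chromosome 8, at 68.2% (63.0 to 73.2), and lowest on X, at 21.6% (9.83 to 38.2), while chromosome 10 had 32.3% (16.7 to 51.4), with a median of 56.5% over chromosomes.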

How the data were processed

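SK-N-MC cells gave 1 ChIP-seq library each for FLI1, SSRP1 and H3K27ac, and an input. Mapping by the authors used Bowtie2 and hg19, and peaks were called, per the design text, with MACS2 2.2.7.1 (version per the submitters' processing notes) against input, with a q-value limit of 0.05. The treatment of duplicate or multiply mapped reads was not stated in the text used here. The authors deposited peak coordinates alone, called per library, with no height, so read depth was not analysed here.

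Lines that repeat an interval for further summits were merged: 38324 FLI1, 23078 SSRP1 and 62198 H3K27ac lines became 36305, 19855 and 37195 peaks on chromosomes 1 to 22 and X. TSSs came from basic transcripts of protein-coding genes in GENCODE release 44 mapped to GRCh37, whose genome gave all sequences. Coordinates are 1-based in hg19. Shares carry 95% Clopper-Pearson intervals, differences Newcombe intervals, and stratified odds ratios Robins-Breslow-Greenland intervals, over 10 deciles of width or 7 strata of GC content. Peaks are not replicates, and neighbouring members can share an SSRP1 or H3K27ac peak. Members in windows of several genes were counted for each. Positions refer to the TSS nearest the FLI1 midpoint, or nearest the SSRP1 midpoint in FLI1-free peaks. The functions were tested on simulated data. Python 3.11.15, numpy 2.4.6, pandas 2.3.3 and scipy 1.17.1 were used.

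Named by rule were, per list, the first 6 genes with a member in list order, the 10 members with the most ETS cores or the widest FLI1 peaks, and 5 peaks beside each limit. CCK, DPF3, EWSR1, FLI1, SUPT16H, KRT18 and MBP fall outside it and were named after their values were seen. The members and lists were chosen with earlier results of these data known. PECAM1 was not matched by symbol. Alternatives were other overlap minima, TSS windows, motif windows and letters, wider peaks only, and leaving out chromosomes 3, 8, 10 and X.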

Additional observations from a re-analysis of the deposited data

Results flagged for a closer look

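FLI1 peaks on chromosome Y and on unplaced or alternative contigs were outside the analysis. Of 234 such peaks, 33 overlapped both SSRP1 and H3K27ac peaks by the same minimum, and they stand out only as signal in positions that the comparisons above did not use. They were not assigned to promoters, and their sequence was not examined.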

How the results depend on the processing

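Requiring 20% of both peaks to overlap left 1355 members at 1485 genes, 40 of them on the lists (89 as reported), and raised the share covering a TSS to 60.5%, SSRP1 downstream of FLI1 to 57.7%, the ETS core share to 21.8% and the core difference from distal sites to 12.7 points. With only peaks at or above the median width of their list there were 1529 members at 1519 genes, 47 on the lists, of which 55.2% of the members covered a TSS and 7.39% were divergent, and the core difference from SSRP1-free peaks was -6.71 points. A TSS was covered at 53.3% of members when the TSS window was 1 kb, and at 44.7% when it was 5 kb. The core share was 31.3% in the whole peak, 10.6% in 100 bp and 40.0% for CGGAA in place of the core. The core difference from SSRP1-free peaks was -1.18 points in the whole peak, and that from distal sites 14.9 points in the whole peak, 5.91 in 100 bp and 17.1 for CGGAA. Pooled over strata of GC content the odds ratios of the core were 0.668 against SSRP1-free peaks and 1.77 against distal sites. TSS coverage against SSRP1-free peaks changed direction over deciles of width, to an odds ratio of 0.885. The causes were not tested. In the other settings run, 64 values of these results stayed within the interval of the reported share or difference, or within 1.5 times a reported count. Of the counts per list, 67 stayed within 1.5 times and 24 moved further. No paired analysis was possible because each target had 1 library. Stronger peaks alone could not be chosen, since the lists give no height.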
